A study of Petrolisthes cinctipes with 164 samples.

Results

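The comparison described here is that of heat stressed and control porcelain crabs after 18 h of recovery. Its members are the 20 deposited channels whose titles give the 18 h recovery time point, of 164 channels in all, and they belong to 10 of 82 crabs. Petrolisthes cinctipes is a small crab of the rocky intertidal zone, and the crabs were taken from the field. The 5 heat stressed crabs had been warmed from 11 to 30 °C over 4 h, and the 5 control crabs had been held at 11 °C for the same 4 h. Both groups then shared an aquarium at 11 °C, in which they spent 18 h before they were sampled. Each crab was 1 animal, not a pool. The tissue is not given in the sources used here, and no marker check of it was possible because the value table holds no gene names.

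A heat stressed and a control crab of equal replicate number formed a pair. Their RNA was copied into cDNA, labelled with the dyes Cy5 and Cy3 and hybridised together to spotted cDNA arrays. On array a of a pair the heat stressed crab carried Cy5, and on array b it carried Cy3. The 18 h comparison thus rests on 5 pairs and 10 arrays. The dyes of a crab were averaged first, and the differential of a pair is the level of its heat stressed crab minus that of its control crab, in log2 units of intensity. A differential of 1 is a doubling. Crabs of a pair are different animals that shared arrays, so the pairing takes out what the arrays have in common and not what individuals differ in.

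Heat makes proteins unfold and aggregate. Cells answer with molecular chaperones that hold or refold damaged proteins, with ubiquitin and the proteasome that remove what cannot be refolded, and later with changes in metabolism and protein synthesis. Intertidal crabs meet such heat at low tide and recover when the water returns, so a time point many hours after the stress reads the recovery rather than the stress itself. Of the probes named here, Pc01Hc13, Pc03Ni14, Pc03Nd19, Pc04Nk04 and Pc04Nk13 are listed in a figure of the study as ATP synthase subunit a and Pc01Hd14 as cytochrome c oxidase subunit 2. Both are encoded by the mitochondrial genome in animals. The former belongs to the proton channel of the enzyme that makes ATP, and the latter to the complex that passes electrons to oxygen. These names were read by eye from a picture. All other probes are given by their plate position alone, and no gene role can be attached to them here.

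All 13818 probes had a value in all 20 channels. The channel medians lay between 7.263 and 7.942, and the 2 channels of an array were at most 0.067 apart in this median. Each channel reached a highest value between 15.64 and 16.17. No pair of channels held identical values. The number of pairs limits the precision, and the p-values rest on the spread between pair differentials, not on that between crabs.

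The control crab of pair 5 stood apart from the rest. In 49 of 13818 probes pair 5 had a differential of -2 or lower while the other 4 pairs lay within 0.5 of 0. Pairs 1 to 4 had 0 such probes, and only 1 probe was higher in pair 5 in the same way. In all 49 probes the control crab of pair 5 had the highest level of the 10 crabs, by a median of 2.66 log2 units over the median of the others. The heat stressed crab of pair 5 had the lowest level in 7 of them. As these probes were chosen by pair 5, an extreme crab in that pair is favoured by the choice. In 37 of the 49 the control crab of pair 5 also exceeded every one of the 36 control crabs of the other time points. In Pc29Gj21, for example, this crab stood at 12.03, while the other 9 crabs lay between 6.62 and 7.69. In Pc15Pp23 it stood at 11.38 against 6.26 to 6.93. All 49 probes were lower by 1 or more on both arrays of the pair.

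The single array of 18 h whose labels conflict also belongs to pair 5. The title of array b gives its channels as heat stressed and control at 18 h, while the descriptions give the opposite treatments and 1 of them the 6 h time point. The title was followed. Turned in this way, arrays a and b of pair 5 correlated over all probes with r = 0.632, the highest value of the 5 pairs, which is a description across probes that share crabs. Turned instead as the descriptions have it, limma called 0 probes in place of the 53 given below, and with array b of pair 5 left out it called 44. Counts are also given without that pair.

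After 18 h, 53 of 13818 probes differed between heat stressed and control crabs in limma on the 5 pair differentials, with an adjusted p under 0.05 after Benjamini-Hochberg adjustment over all probes. This is 0.384% of the probes. Of these, 34 were raised, which is 0.246%, and 19 were lowered, which is 0.138%. The rises were large and the falls small. The raised probes had a mean differential between 0.74 and 4.37 with a median of 1.94, and 28 of 34 reached 1, 15 reached 2 and 8 reached 3. The lowered probes lay between -1.15 and -0.56 with a median of -0.76, and 7 of 19 reached -1. The median over all probes was 0.0115. An unadjusted p under 0.05 was found for 1027 probes.

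The call of single probes depended on the pairing and on each pair. Without the pairing, limma called 29 probes (0.21%), of which 28 rose (0.203%) and 1 fell (0.00724%), and 27 of the 29 were among the 53. The 12 largest rises named below all kept their call in that fit, while of the 12 named falls only Pc35Hf10 kept it, with an adjusted p of 0.0403 in limma. Without pair 1 the count was 25, without pair 2 it was 19, without pair 3 it was 20, and without pair 4 or without pair 5 it was 27. The same 12 of the 53 were called in all 5 of these fits, 10 raised and 2 lowered. Among them were Pc01Hi06, Pc04Ni13, Pc04Nb07, Pc32Hb04 and Pc33Hn10 on the raised side, and Pc04Nf18 and Pc35Hf10 on the lowered.

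**Figure D1:**
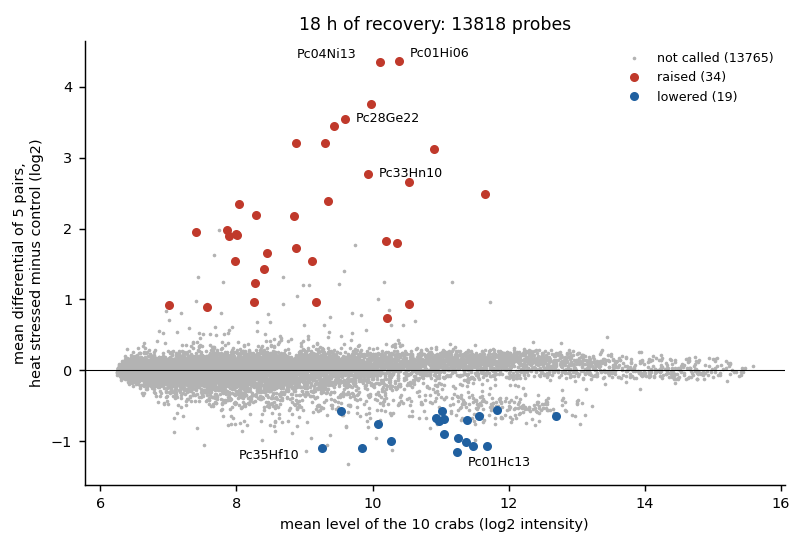
Mean differential of the 5 pairs at 18 h (y axis, log2, heat stressed minus control) against the mean level of the 10 crabs (x axis, log2 intensity), 1 point per probe. The 34 raised probes extend to 4.37, while the 19 lowered probes stay between -1.15 and -0.56, among uncalled probes of like size.

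Most probes differed little. The 5th and 95th percentiles of the mean differential were -0.282 and 0.203, and the 1st and 99th were -0.563 and 0.346. A mean of at least 1 was found for 42 probes (0.304%), of which 28 were called and 40 had that sign in all 5 pairs. A mean of -1 or lower was found for 12 probes (0.0868%), of which 7 were called and 9 had that sign in all 5 pairs. Over all probes, 619 (4.48%) were higher in 5 of 5 pairs and 671 (4.86%) were lower.

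The largest rise was that of Pc01Hi06. Its level in heat stressed crabs 1 to 5 was 11.97, 12.68, 12.19, 12.86 and 13.18, and in control crabs 1 to 5 it was 8.06, 8.99, 8.03, 8.05 and 7.93. The lowest heat stressed crab stood almost 3 log2 units above the highest control crab. The pairs differed by 3.91, 3.69, 4.16, 4.81 and 5.25. Every array showed the rise, with values from 3.08 on array b of pair 2 to 5.58 on array a of pair 5. The mean was 4.37 (SE 0.234, n = 5 pairs), a 20.6-fold higher intensity, with an adjusted p of 0.00287 in limma.

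Pc04Ni13 rose as far. Heat stressed crabs 1 to 5 stood at 12.34, 12.01, 11.60, 12.81 and 12.68, and its control crabs at 8.43, 8.42, 7.40, 7.82 and 7.63. Again the groups were far apart, and pairs 4 and 5 had the largest differentials, 4.99 and 5.05. The mean was 4.35 (SE 0.235, n = 5 pairs), which is 20.4-fold, with an adjusted p of 0.00287 in limma.

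Pc28Ge22 rose by less and less evenly. In order of number, its heat stressed crabs stood at 9.17, 11.41, 11.65, 12.13 and 12.46, and its control crabs at 7.23, 8.16, 7.81, 7.78 and 8.10. Heat stressed crab 1 was the low one, more than 2 log2 units under the other 4, yet it stood above all control crabs. Pair differentials were 1.94, 3.25, 3.84, 4.35 and 4.36. The mean was 3.55 (SE 0.36, n = 5 pairs), with an adjusted p of 0.0192 in limma. The SD was 1.29 among the heat stressed and 0.369 among the control crabs.

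Pc33Hn10 rose evenly in 4 of its 5 pairs. Its heat stressed crabs stood at 11.30, 11.35, 10.70, 11.86 and 11.39, and its control crabs at 8.65, 8.84, 8.08, 8.18 and 8.99. The groups did not overlap. The pairs differed by 2.65, 2.51, 2.62, 3.68 and 2.41, so that pair 4 lay apart. The mean was 2.77 (SE 0.189, n = 5 pairs), which is 6.84-fold, with an adjusted p of 0.00504 in limma.

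In Pc03Nk19 it was the control crabs that were even. They lay between 9.23 and 9.45 with an SD of 0.0964, while the heat stressed crabs lay between 11.50 and 13.25 with an SD of 0.746. Its mean differential was 3.12 (SE 0.291, adjusted p 0.0161 in limma). Among the 12 largest rises, Pc04Nd05 spread widely over its pairs, at 1.83, 1.66, 2.35, 2.70 and 3.88. Its mean was 2.49 (SE 0.316), and its adjusted p of 0.0441 was the highest of the 12.

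The other probes among the 12 largest rises were Pc04Nb07 with a mean of 3.76, Pc35Hd22 with 3.44, Pc03No23 with 3.21, Pc32Hb04 with 3.20, Pc07Wl09 with 2.66 and Pc33He01 with 2.39. Their adjusted p lay between 0.00437 in Pc04Nb07 and Pc32Hb04 and 0.0181 in Pc33He01. In Pc35Hd22 the pairs ranged from 2.20 in pair 1 to 4.57 in pair 4, and in Pc32Hb04 from 2.70 in pair 1 to 4.04 in pair 4. Size and certainty did not follow each other closely. The smallest p of all probes belonged to Pc29Gi20, whose mean rise was 2.20 with pairs between 1.95 and 2.598, and Pc31Hi13 had a like adjusted p of 0.00287 at a mean of 2.18. Both lie outside the rule for named probes and were chosen after their values were seen.

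All 34 raised probes were higher in the heat stressed crab on 10 of 10 arrays. In 28 of the 34 the levels of the 5 heat stressed crabs did not overlap those of the 5 control crabs, while such a separation upward was found for 39 of 13818 probes, 0.282%. The call used the same crabs, so this is a description. The size varied between pairs. The median over the 34 probes was 1.70 in pair 1, 1.70 in pair 2, 1.73 in pair 3, 2.599 in pair 4 and 2.04 in pair 5. Pair 4 had the largest differential in 24 of the 34 probes and the smallest in 0, and pair 1 had the smallest in 13 and pair 2 in 11. The SD among heat stressed crabs was the larger in 24 of 34 probes, with a median of 0.423 against 0.367 among control crabs.

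**Figure D2:**
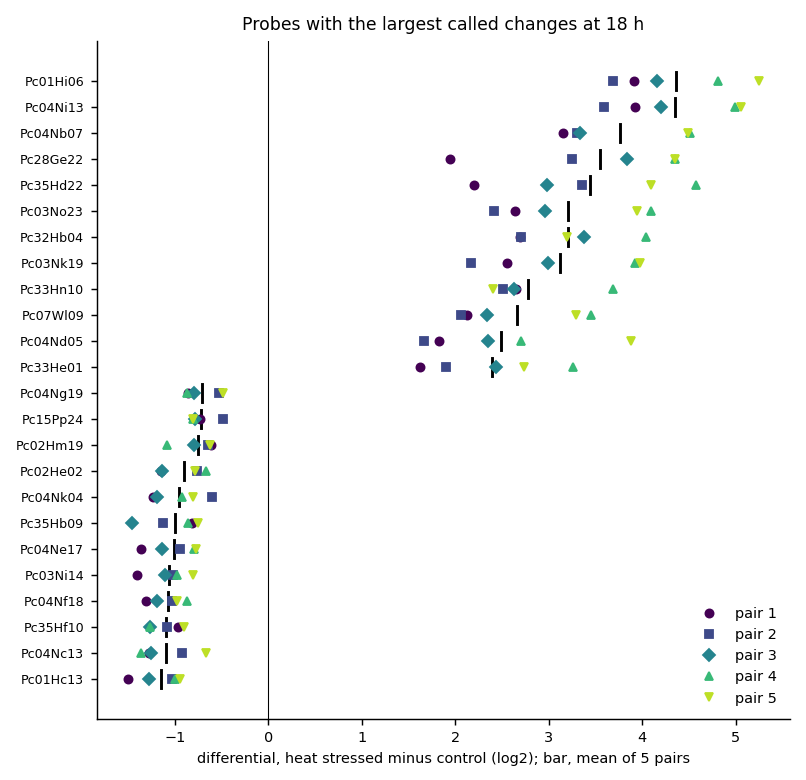
Differential of each pair (x axis, log2, heat stressed minus control) for the 12 raised and 12 lowered probes with the largest called changes at 18 h (y axis). Markers and colours tell the 5 pairs apart and the black bars are means; pairs 4 and 5 lie to the right in most raised probes, from 2.39 up to 4.37 on average.

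The largest called fall was that of Pc01Hc13, listed as ATP synthase subunit a. Its heat stressed crabs stood at 10.41, 10.32, 10.13, 11.86 and 10.60, and its control crabs at 11.91, 11.35, 11.41, 12.85 and 11.54. Both crabs of pair 4 were high, so the groups overlapped although every pair fell. The pairs differed by -1.50, -1.03, -1.28, -0.999 and -0.94. The mean was -1.15 (SE 0.0967, n = 5 pairs), a 2.22-fold lower intensity, with an adjusted p of 0.0115 in limma. The values on the 10 arrays lay between -1.85 and -0.91.

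Of the 5 probes listed as ATP synthase subunit a, 3 were called lowered, beside 0.138% of all probes. The called ones besides Pc01Hc13 were Pc03Ni14, with a mean of -1.06 (SE 0.0921, adjusted p 0.0121 in limma), and Pc04Nk04, with -0.95 (adjusted p 0.0258). Pc03Nd19 had a mean of -0.99 with an adjusted p of 0.0513, and Pc04Nk13 a mean of -0.63 with an adjusted p of 0.0662. All 5 were lower in 5 of 5 pairs, as were 4.86% of all probes, and on 10 of 10 arrays. They were listed by the study from arrays that include these, so their direction is no independent evidence, and probes of 1 gene are not replicates of each other. Pc04Ne17 is 1 reading of an identifier that is not clearly legible in that list, and its mean was -1.01 (adjusted p 0.0186 in limma).

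Pc01Hd14, listed as cytochrome c oxidase subunit 2, was not called. The heat stressed crabs stood at 9.42, 10.08, 11.19, 12.96 and 12.01, and its control crabs at 10.13, 10.10, 11.89, 13.75 and 12.63. Levels spread over more than 3 log2 units within each group, and the groups overlapped widely. The pairs differed by -0.71, -0.02, -0.70, -0.79 and -0.61, with pair 2 near 0. The mean was -0.56 (SE 0.121, n = 5 pairs), with an adjusted p of 0.17 in limma. On arrays a of pairs 1 and 2 it was higher in the heat stressed crab, by 0.11 and 0.61.

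Pc35Hf10 fell without any overlap of the groups. Its heat stressed crabs stood at 8.74, 8.70, 8.41, 9.09 and 8.60, and its control crabs at 9.70, 9.79, 9.68, 10.36 and 9.51. Every heat stressed crab was below every control crab. Pair differentials were -0.97, -1.08, -1.27, -1.27 and -0.91, the mean was -1.10 (SE 0.0775, n = 5 pairs), and the adjusted p of 0.00556 in limma was the lowest among the lowered probes. Pc04Nc13 had a mean of -1.10 as well (adjusted p 0.0198), with pairs between -1.36 and -0.67.

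In Pc15Pp24 the levels differed far more between pairs than between treatments. Its heat stressed crabs stood at 8.58, 10.88, 10.47, 11.01 and 12.12, and its control crabs at 9.32, 11.37, 11.25, 11.82 and 12.92. Both crabs of a pair were high or low together, pair 1 lowest and pair 5 highest. The part of their shared arrays in this was not tested. The pairs differed by -0.74, -0.48, -0.78, -0.80 and -0.80. The mean of -0.72 had an SE of 0.0691 and an adjusted p of 0.0170 in limma. The SD among crabs was 1.29 in the heat stressed and 1.31 in the control group, and the adjusted p without the pairing was 1. The fall also differed between the arrays of a pair, and the part of the dye in this was not tested. On arrays a the 5 values were -0.31, 0.39, -0.15, -0.91 and -0.77, and on arrays b they were -1.17, -1.36, -1.41, -0.70 and -0.83, so that the arrays of pairs 1 to 3 were far apart and those of pairs 4 and 5 close.

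The rest of the 12 largest falls were those of Pc04Nf18 with a mean of -1.07, Pc35Hb09 with -1.004, Pc02He02 with -0.90, Pc02Hm19 with -0.76 and Pc04Ng19 with -0.71. Their adjusted p lay between 0.00652 in Pc04Nf18 and 0.0303 in Pc04Ng19. Pc36Hk10 had a mean of -0.92, with an adjusted p of 0.0513.

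**Figure D3:**
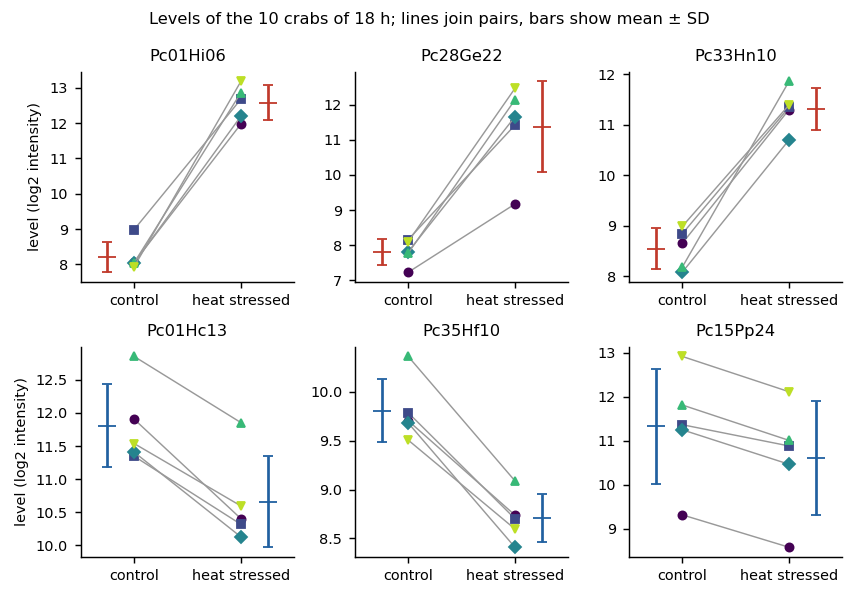
Levels (y axis, log2 intensity, a different range in each panel) of the 5 control and 5 heat stressed crabs for 6 probes; grey lines join the crabs of a pair and the outer bars show the mean ± SD of each group. Pc01Hi06, Pc28Ge22, Pc33Hn10 and Pc35Hf10 separate the groups, while Pc01Hc13 and Pc15Pp24 overlap and fall within every pair.

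Of the 19 lowered probes, 13 were lower in the heat stressed crab on all 10 arrays and each on at least 8. The groups did not overlap in 5 of the 19, where the share of all probes separated downward was 0.109% (15 probes). Pair medians over the 19 probes were -0.82, -0.65, -0.99, -0.85 and -0.76. Pair 4 had the largest fall in 9 probes and pair 1 in 6, and pair 5 had the smallest in 9. The threshold passed through a dense range of such falls. Pc03Nf03, just inside, had a mean of -0.56 and an adjusted p of 0.0487, while Pc03Nb13, just outside, also had a mean of -0.56 and an adjusted p of 0.0502. On the raised side Pc28Gd21 lay just inside with a mean of 1.54 and an adjusted p of 0.04997, and Pc01Hn07 just outside with 0.69 and 0.0502.

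Some probes with large means were not called. Pc32Hp23 rose on all 10 arrays, but its pairs ranged from 0.51 in pair 1 to 3.18 in pair 5, and its mean of 1.98 had an adjusted p of 0.103 in limma. Pc02Hp24 with a mean of 1.77 (adjusted p 0.0852) and Pc30Hl13 with 1.63 (adjusted p 0.0630) were likewise higher in 5 of 5 pairs. On the negative side Pc05Wf05, with a mean of -1.12, and Pc34Hh09, with -1.05, were lower in 5 of 5 pairs (adjusted p 0.359 and 0.391 in limma). In others pair 5 went apart. Pc18Pf10 had the lowest mean of all probes, -1.33, with pairs at -2.003, -1.30, -2.06, -2.85 and 1.57. Its control crabs stood at 10.71, 10.87, 11.14, 10.77 and 7.99, so control crab 5 was the odd one. In Pc01Ho14 the mean of -1.14 came from pair 5, at -6.40, as its control crab 5 stood at 14.24 and all other crabs between 7.76 and 9.52.

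Beyond a mean of 0.5 in either direction more probes lay on the negative side, although 54.8% of all means were above 0. A mean of -0.5 or lower was found for 225 of 13818 probes. Of the 225, 19 were called and 162 were lower in 5 of 5 pairs. A mean of 0.5 or higher was found for 85 probes, of which 34 were called and 80 were higher in 5 of 5 pairs. Of the 225, 132 (58.7%) had an intensity of 10 or more averaged over the 10 crabs, as had 17 of the 85 (20%) and 16.5% of all probes. Brightness thus moved with the direction of the change, and its part in the falls was not tested. The plate position carries a letter whose meaning the files do not give. Letter N, which covers 768 probes, held 84 of the 225 and 16 of the 53 called probes, 7 raised and 9 lowered. That is 2.08% of its probes, against 0.384% of all.

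A few called probes lay beside each other on their plates. They were Pc01Hi05 (1.24) beside Pc01Hi06 (4.37), Pc04Nb06 (0.97) beside Pc04Nb07 (3.76), and Pc31Hn17 (1.82) beside Pc31Ho17 (1.79), with mean differentials in parentheses. The 126 uncalled plate neighbours of the raised probes had a median differential of 0.0026, near the 0.0115 of all probes. The 70 uncalled neighbours of the lowered probes had a median of -0.0505, and 28 of them were above 0. Whether plate neighbours were neighbours on the array is not given in the sources used here.

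The arrays of a pair correlated more closely over the called probes than over all probes, most of which differed little. The part of the wider range of the called probes in this was not tested. Over all probes, arrays a and b correlated with r = -0.0133 in pair 1, -0.211 in pair 2, 0.174 in pair 3, 0.372 in pair 4 and 0.632 in pair 5. Over the 53 called probes r was 0.892, 0.903, 0.957, 0.979 and 0.986. As the call used these arrays, their closeness is partly built in. Other arrays chose the 380 probes called at the remaining time points (given below), and over them r was 0.704, 0.631, 0.887, 0.937 and 0.946. The part of the dyes in the low values of pairs 1 and 2 was not tested. The lowest r between arrays of different pairs was -0.11 with the same dye orientation and -0.333 with opposite orientation.

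**Figure D4:**
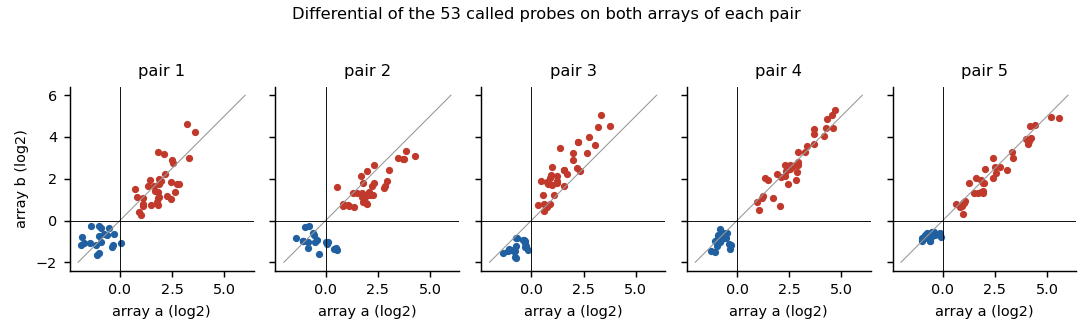
Differential (log2, heat stressed minus control) of the 53 called probes on array a (x axis) and array b (y axis) of each pair, red for raised and blue for lowered, with the line of equality in grey. All 53 had 1 sign on both arrays in pairs 3, 4 and 5, against 52 in pair 1 and 47 in pair 2.

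Pairs 1 and 2 thus had the weakest agreement between their arrays, and pair 5 the widest spread. The number of probes with a differential of at least 1 in either direction was 161, 84, 137, 186 and 448 in pairs 1 to 5, of which 323 in pair 5 were lower. The correlation of a pair's differentials with the mean of the other 4, over all probes, was 0.252, 0.284, 0.438, 0.400 and 0.134. Without pairs 1 and 2, which was tried after the values were seen, limma on the remaining 3 pairs called 0 probes, and 1118 had an unadjusted p under 0.05.

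The 36 pairs of the other 8 time points gave a list that the 18 h crabs had no part in. With time points weighted equally, limma called 380 probes in them (2.75%), 217 raised (1.57%) and 163 lowered (1.18%). The 36 pairs include those of 4 h and 6 h, where treatment labels conflict for whole crabs. Without those pairs limma called 288 raised probes, of which 234 had a mean above 0 at 18 h. It called 191 lowered probes, of which 183 had a mean below 0. Of the 217, 191 had a mean above 0 at 18 h, as had 54.8% of all probes. In 5 of 5 pairs 102 of the 217 were higher, as were 4.48% of all probes. Of the 163, 158 had a mean below 0 at 18 h, as had 45.2% of all probes. In 5 of 5 pairs 115 of the 163 were lower, as were 4.86% of all probes. The median at 18 h was 0.29 for the former and -0.52 for the latter, beside 0.0115 over all probes.

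These medians held their sign in every pair. For the probes raised elsewhere they were 0.37, 0.43, 0.21, 0.53 and 0.20 in pairs 1 to 5, and for the lowered -0.34, -0.33, -0.71, -0.59 and -0.43. All 34 probes raised at 18 h and 15 of the 19 lowered were among the 380. Over the 380 probes, the differentials of the pairs correlated with the mean of the other 36 pairs with r = 0.925, 0.919, 0.923, 0.948 and 0.805, lowest in pair 5.

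The probes called at 18 h were followed through the other time points, whose crabs were all different animals. As they were chosen at 18 h, their values there are favoured by the choice. The median of the 34 raised probes was 1.84 after 1 h, 1.51 after 2 h and 1.53 after 12 h. It was 1.94 after 18 h, 1.58 after 24 h and 1.505 after 30 h. After 4 h and 6 h, where treatment labels conflict for whole crabs, it was 0.34 and 1.09, and after 0.5 h it was 0.77. All 34 were higher in every pair of 2 h, 12 h, 18 h and 24 h, as were 32 in every pair of 30 h and 33 in every pair of 1 h. At 0.5 h and at 6 h 0 of the 34 were higher in every pair, and at 4 h 3 were. The pairs of 0.5 h could spread widely. In Pc01Hi06, for example, 4 of 5 pairs were higher at 0.5 h, and the mean of 1.85 had an SD of 3.21 between pairs. The largest mean of the 9 time points fell at 18 h for 12 of the 34. For 11 it fell at 30 h, for 10 at 1 h and for 1 at 24 h.

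Likeness over the 36 pairs from elsewhere in the time course split the raised probes into 2 main groups, formed by average linkage with a cut at r = 0.7. The 36 pairs include those of 4 h and 6 h, where treatment labels conflict for whole crabs, and the widely spread ones of 0.5 h. The part of those pairs in the likeness was not tested. The groups were thus formed on the other time points and the probes chosen at 18 h. The courses of the groups are a description, and a contrast between them is built in. The first held 20 probes, among them Pc01Hi06, Pc04Ni13, Pc04Nb07, Pc35Hd22 and Pc03No23. Its median was 1.61 after 1 h, 1.78 after 12 h, 2.29 after 18 h, 1.93 after 24 h and 2.26 after 30 h. The other held 12 probes, among them Pc28Ge22 and Pc33Hn10. Its median was 2.02 after 1 h, 1.53 after 12 h, 1.80 after 18 h, 1.16 after 24 h and 1.02 after 30 h.

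The courses of single probes illustrate the groups. Pc01Hi06 had a mean of 3.87 after 1 h, 3.42 after 12 h, 4.37 after 18 h, 3.84 after 24 h and 4.38 after 30 h. Pc28Ge22 had 4.06 after 1 h, 2.60 after 12 h, 3.55 after 18 h, 2.11 after 24 h and 1.47 after 30 h. For Pc28Ge22 the difference of 18 h from 24 h had an adjusted p of 1 and that from 30 h an adjusted p of 0.67 in limma over all 41 pairs, so neither was called. For Pc34Hj10, of the same group as Pc28Ge22, the means were 2.96 at 1 h, 2.34 at 18 h and 0.64 at 30 h. Whether the groups differ in course was not tested.

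The lowered probes were grouped in the same way, with the same limits. The 6 probes most like Pc01Hc13 were that probe, Pc04Nf18, Pc03Ni14, Pc04Ne17, Pc04Nk04 and Pc02He02, with r of at least 0.913 to Pc01Hc13 over the 36 pairs. Their median was -1.39 after 1 h, -1.34 after 2 h, -0.96 after 12 h, -1.03 after 18 h, -0.82 after 24 h and -0.55 after 30 h. A group of 8 with Pc35Hf10, Pc04Nc13, Pc35Hb09, Pc15Pp24 and Pc04Ng19 had a median of -0.38 after 1 h, -0.56 after 12 h, -0.71 after 18 h, -0.77 after 24 h and -0.54 after 30 h. The former was lowest in the first hours, and the latter at 18 h and 24 h. In Pc35Hf10 the mean was -0.28 after 1 h, -0.37 after 12 h, -1.10 after 18 h, -0.82 after 24 h and -0.92 after 30 h. Its change from 12 h to 18 h, -0.73 (SE 0.248), had an unadjusted p of 0.0060 and an adjusted p of 1.00 in limma.

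**Figure D5:**
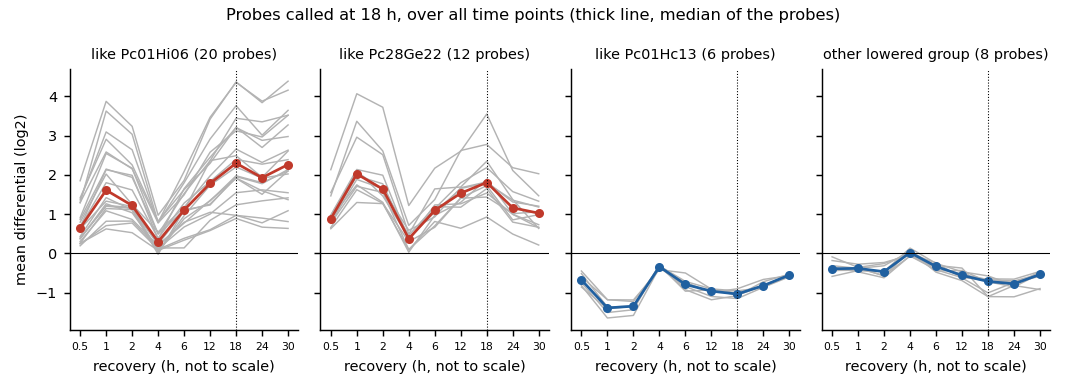
Mean differential (y axis, log2, heat stressed minus control) of probes called at 18 h over the 9 time points (x axis, hours of recovery, not to scale), grey for single probes and coloured for the median of each group of like probes. The dotted line marks 18 h, where the medians are 2.29, 1.80, -1.03 and -0.71 from left to right.

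The neighbouring time points, fitted by themselves in the same way, gave counts of the same order. At 12 h 64 probes were called (0.463%), 46 raised (0.333%) and 18 lowered (0.13%). At 24 h 34 were called (0.246%), 23 raised (0.166%) and 11 lowered (0.0796%). Of the raised probes, 30 were shared with 12 h, which is 88.2% of those of 18 h and 65.2% of those of 12 h. With 24 h 16 were shared, 47.1% and 69.6% of the lists. The lowered lists overlapped less in number, with 4 probes shared with 12 h (21.1% and 22.2%) and 0 with 24 h. All 19 lowered probes nevertheless had means below 0 at both times.

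The difference between time points was tested with limma over all 41 pairs. Between 18 h and 12 h 0 probes differed, with 478 at an unadjusted p under 0.05, and between 18 h and 24 h 0 differed, with 375. Limma on the pairs of only both time points and limma without pairing also called 0 in each. Without pair 2 of 18 h the comparison with 12 h called 1. For Pc01Hi06 the change from 12 h to 18 h was 0.95 with an SE of 1.11, or 0.345 when only the pairs of both times were fitted. Neither fit called it after adjustment over all probes.

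The comparison with 30 h was added after the values were seen. In it 28 probes (0.203%) differed with an adjusted p under 0.05, all with the lower differential at 18 h, and 0 of them were called at 18 h. Their median was -0.06 at 18 h and 0.66 at 30 h, and all 28 were above 0 at 30 h. In Pc01Hf13 the mean was -0.25 at 18 h, with all pairs below 0, and 0.42 at 30 h, with all pairs above 0 (difference -0.67, SE 0.107, adjusted p 0.00592). In Pc05Wg08 it was -0.13 at 18 h, with 2 of 5 pairs above 0, and 1.39 at 30 h, with 5 of 5. This count rested on the whole-series fit and on single pairs. Limma on the pairs of only both times called 0, and limma without pairing called 0. Without pair 5, pair 1 or pair 4 of 18 h the count was 1, 6 or 10. With each pair left out in turn the count lay both below and above 28, a range given at the end.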

How the data were processed

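The values that the authors deposited are processed log2 intensities per channel. How background, normalization and centring were handled is not given in the sources used here. A log2 scale was inferred from the highest values of the 18 h channels, 15.64 to 16.17, near the limit of a scanner. Medians were nearly equal within an array, so a shift common to all probes could not be seen. Direction was taken from the treatments in the titles, which do not give the dye.

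Each crab was the mean of its channels on arrays a and b. Pair differentials were tested against 0 in R 4.3.3 by lmFit and eBayes of limma 3.58.1, two-sided, with Benjamini-Hochberg adjustment over 13818 probes. Differences between time points came from 1 limma fit over 41 pairs. Crabs of equal number shared their arrays per the labels, so the number was used as a pair. How they deviated from their group means correlated with r = 0.842, 0.715, 0.744, 0.712 and 0.59 over probes. The median of -0.255 for unequal numbers is no separate contrast, as deviations from a group mean cancel out within the group. The rest was computed in Python 3.11.15 with pandas 2.3.3, numpy 2.4.6 and matplotlib 3.10.9. The tests were also run on simulated data with independent normal errors, without effects of dye, array or single crabs. That run does not show how the tests behave with such effects.

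Probes named were the 12 largest called rises and the 12 largest called falls with 1 sign in all 5 pairs, together with probes named in earlier work on these arrays. The samples, lists and tests were chosen with earlier results of these data known. Lists by gene name and cell type could not be applied, since no table pairs probes with genes. Alternatives covered the pairing, the arrays and pairs in the fit, dye, normalization, dim probes, moderation and the conflicting label. Slides and scans as batches were not analysed here.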

Additional observations from a re-analysis of the deposited data

Results flagged for a closer look

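Among 28 named probes, each with 5 pair differentials, 3 had a pair far from the others, with a gap to the nearest pair that took up more of the range than Dixon's limit of 0.71. Chance gives about 1 in 20 such cases. In Pc33Hn10 pair 4 (3.68, others 2.41 to 2.65) had a ratio of 0.808. In Pc15Pp24 pair 2 (-0.48, others -0.80 to -0.74) had 0.787. In Pc01Hd14 pair 2 (-0.02, others -0.79 to -0.61) had 0.774.

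Pc04Nc13 was below 0 in all 5 pairs of 18 h, with a mean of -1.10, and above 0 in all 3 pairs of 4 h, with a mean of 0.055. The difference of -1.16 had an adjusted p of 0.91 in limma over 41 pairs and 0.21 with the pairs of both time points alone. Treatment labels conflict for whole crabs at 4 h.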

How the results depend on the processing

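Under 23 other settings all 53 called probes kept the sign of their mean, except that 3 of them were not tested when probes under the median level were left out. This was largely fixed in advance. Many of the settings leave the mean as it is, and all 53 had 1 sign in all 5 pairs. The counts did move. The total of 53 became 29 without the pairing (replicate block), 80 with all 41 pairs in the fit and 26 with all 82 crabs and no block. It became 616 on array b alone (466 raised, 150 lowered) and 161 with a dye term and the pair as random block (69 raised, 92 lowered). It became 85 without probes under the 25th percentile of level and 107 without those under the median, where fewer probes were tested. With trend and robust moderation 21 were called, all raised, 0 lowered. The ordinary paired test without moderation called 0 (997 at an unadjusted p under 0.05), as did limma with array b of pair 5 turned as described (788 unadjusted). Chosen after seeing the data, leaving out pairs 1 and 2 gave 0, and leaving the 4 h and 6 h pairs out of the fit over all times gave 98 (64 raised, 34 lowered).

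With all 41 pairs 57 were raised. The 19 lowered probes became 1 without the pairing, 0 with all crabs and no block, 7 on array a alone, 29 after centring, 35 after quantile normalization, 39 and 57 without the dim probes under the 25th percentile and the median, and 5 by 1 sign in all pairs with a median of at least 1. Leaving out each pair in turn gave 19 to 27 probes in all, 15 to 24 raised and 2 to 7 lowered. The same 12 of the 53 were called every time. For the difference from 30 h it gave 1 to 35 of 28, and for that from 12 h 0 to 1. That from 30 h was 0 with only both times' pairs and 0 without the pairing. The cause of these shifts was not tested. Of the 12 named falls, 11 lost their call without the pairing, while the 12 named rises kept theirs. Of all 28 named probes 0 reversed under any setting, which was likewise largely fixed in advance. With 5 pairs and 10 arrays, falls near 0.6 lay on either side of the threshold.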
